A study of Homo sapiens with 18 samples.

Results

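The genes described here are 10 components of transforming growth factor beta (TGF-beta) signalling: the ligand genes TGFB1, TGFB2 and TGFB3, the receptor genes TGFBR1, TGFBR2 and TGFBR3, the signal transducer SMAD3, and the feedback genes SMAD7, SKIL and PMEPA1. They were chosen by name, as all array probes annotated to these symbols, which gave 17 probes for 10 of the 20046 genes measured. RNA came from HCC827, an established human lung adenocarcinoma line that carries a mutant EGFR gene, and the study concerns epithelial to mesenchymal transition (EMT), in which epithelial cells lose cell adhesion and take on mesenchymal traits. The 18 Illumina bead arrays form 6 groups of 3. Parental cells had no treatment, and TGFB1-treated cells received the TGFB1 protein. Cells labelled SNAIL carried a lentivirus for V5-tagged SNAIL (gene SNAI1), and their control carried a pLX303-lacZ virus. The titles of the SNAIL samples, pLX303-lacZ SNAIL-V5, name lacZ as well. Cells labelled shCDH1 carried a pLKO1 hairpin virus against CDH1, the gene of E-cadherin, and their control carried a pLKO1 non-target hairpin (shNT). All 6 groups are the same single cell line. How long TGFB1 was applied differs between the sources: the sample labels state 30 days, whereas 72 hours (10 ng/mL) is stated for the series as a whole, and the arrays do not settle which is right. Nothing in the labels says that the 3 arrays of a group are separate cultures, so the p-values measure a spread that may be technical. In every group arrays 1 and 2 carry description number 1 and array 3 carries number 2. With arrays of one description number averaged, 7 of the 10 genes were called under TGFB1, 7 in SNAIL and 5 in shCDH1 cells. Over single arrays 7, 10 and 6 were called, where 31.2%, 36.6% and 33.9% of all genes were called. The share of all genes with averaged arrays is not given here. The calls lost on averaging were those of TGFB1, TGFB3 and SMAD3 in SNAIL cells and of SMAD3 in shCDH1 cells.

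TGF-beta ligands are secreted in a latent form, and once freed they bind a type II receptor (TGFBR2), which recruits and phosphorylates a type I receptor (TGFBR1). The type III receptor betaglycan (TGFBR3) has no kinase and presents ligand, TGFB2 above all. The active type I receptor phosphorylates SMAD2 and SMAD3, which enter the nucleus with SMAD4 and switch on target genes, among them their own inhibitors. SMAD7 blocks and degrades the type I receptor, SKIL (SnoN) is a corepressor of SMAD complexes, and PMEPA1 keeps SMAD2 and SMAD3 from being recruited to the receptor. In lung epithelial cells this pathway is a well-known inducer of EMT.

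The 3 feedback genes are shown because they were highest in TGFB1-treated cells, with no overlap with the next group. TGFB2 is shown as the ligand with the widest range. TGFB3 and TGFBR1, not shown, were also highest in TGFB1-treated cells, but their arrays overlapped with those of SNAIL cells. Each sequence is the 250 bases before the outermost annotated start, from RefSeq on GRCh38.p14, 5′ to 3′ on the gene's strand. Capitals mark the SMAD-binding element CAGAC or its reverse complement.
SMAD7, chr18:48950966-48951215, minus strand: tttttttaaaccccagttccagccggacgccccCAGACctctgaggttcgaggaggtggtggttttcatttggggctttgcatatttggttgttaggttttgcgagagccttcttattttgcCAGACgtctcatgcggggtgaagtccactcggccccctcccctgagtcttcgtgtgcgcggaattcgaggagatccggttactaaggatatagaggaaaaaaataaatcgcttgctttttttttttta
SKIL, chr3:170357465-170357714, plus strand: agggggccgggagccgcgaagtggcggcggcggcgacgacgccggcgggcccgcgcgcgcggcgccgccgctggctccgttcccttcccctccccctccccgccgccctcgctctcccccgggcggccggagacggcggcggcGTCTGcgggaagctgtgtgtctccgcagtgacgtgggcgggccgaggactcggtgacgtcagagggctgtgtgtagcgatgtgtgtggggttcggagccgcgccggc
PMEPA1, chr20:57711473-57711722, minus strand: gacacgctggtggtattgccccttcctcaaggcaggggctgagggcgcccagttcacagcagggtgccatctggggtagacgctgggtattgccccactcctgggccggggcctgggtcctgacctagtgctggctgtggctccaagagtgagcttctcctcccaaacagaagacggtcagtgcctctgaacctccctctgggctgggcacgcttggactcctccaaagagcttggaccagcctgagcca
TGFB2, chr1:218345086-218345335, plus strand: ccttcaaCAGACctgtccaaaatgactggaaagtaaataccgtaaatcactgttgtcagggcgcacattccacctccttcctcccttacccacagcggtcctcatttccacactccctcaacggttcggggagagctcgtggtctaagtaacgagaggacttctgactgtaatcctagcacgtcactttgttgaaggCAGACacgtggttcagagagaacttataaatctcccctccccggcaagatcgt

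The SMAD7 window held 2 such elements, which begin 217 and 128 bases before the start, the SKIL window held 1, at 107 bases, and the TGFB2 window held 2, at 243 and 53 bases. No CAGAC on either strand was present in this PMEPA1 window. RefSeq listed 4 start windows for PMEPA1, and 2 of them held the element. Among the genes not shown, the outermost window of TGFB3 held CAGAC, and those of TGFB1, TGFBR1, TGFBR2 and SMAD3 did not. The 1 window listed for TGFBR3 did not hold it either. On either strand CAGAC occurred in 38% of the 35116 human promoter windows of this length, so its presence is common. The palindrome GTCTAGAC was in none of the windows listed for the 10 genes and in 0.182% of all windows. The E-box CACCTG, which SNAIL and ZEB proteins bind, was absent from the 4 sequences shown and present in 17.5% of all windows. It was present in another listed window of 2 of these genes, 1 of 3 windows for SMAD7 and 1 of 4 for PMEPA1. The AP-1 motif TGANTCA was likewise absent from the 4 sequences and present in 6.57% of all windows.

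Levels below are normalized log2 intensities, so that 1 unit is a factor of 2 in brightness, and a level is read only against the same probe on other arrays. Median raw intensity per array ran from 152 to 236, with TGFB1-treated arrays 1 and 2 the dimmest (154 and 152) and TGFB1-treated array 3 at 225, within the parental range of 186 to 236. The median of all probes stood at 6.83 on the log2 scale, and changes of genes near it rest on signal close to background, with no detection calls used here. The arrays correlated at 0.989 to 0.994 within groups and 0.930 to 0.989 between groups. CDH1, the hairpin's target, was at 12.94 to 13.04 on the shNT arrays and 8.14 to 8.84 on the shCDH1 arrays. SNAI1 was at 6.10 to 6.49 on the lacZ arrays and 6.04 to 6.28 on the SNAIL arrays, all below the median of all probes, so the probe does not show a higher SNAI1 level in the cells labelled SNAIL. The position of that probe relative to the viral coding sequence was not examined. CDH1 in the cells labelled SNAIL fell from 13.12 ± 0.03 to 7.50 ± 0.04 (SD, n = 3). Under TGFB1 the CDH1 fall was far smaller, from 13.03 ± 0.03 in parental to 12.69 ± 0.09 in TGFB1-treated cells. All 6 epithelial markers checked (EPCAM, CDH1, KRT7, KRT8, KRT18 and KRT19) were above the median of all probes in every group, with group means down to 6.96 in SNAIL cells. Their summed log2 level nevertheless fell from 78.0 in parental to 74.0 in TGFB1-treated cells. It fell from 78.5 in lacZ to 54.1 in SNAIL cells and from 77.4 in shNT to 68.4 in shCDH1 cells. Of 5 lung epithelial markers (NKX2-1, NAPSA, SFTPA1, SFTPB and SFTPC), 3 lay above that median in parental, 2 in lacZ and 2 in shNT cells. In each of the TGFB1-treated, SNAIL and shCDH1 groups 1 did. Between 0 and 1 of the 4 endothelial markers, and 2 to 3 of the 5 haematopoietic ones measured, lay above that median.

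**Figure D1:**
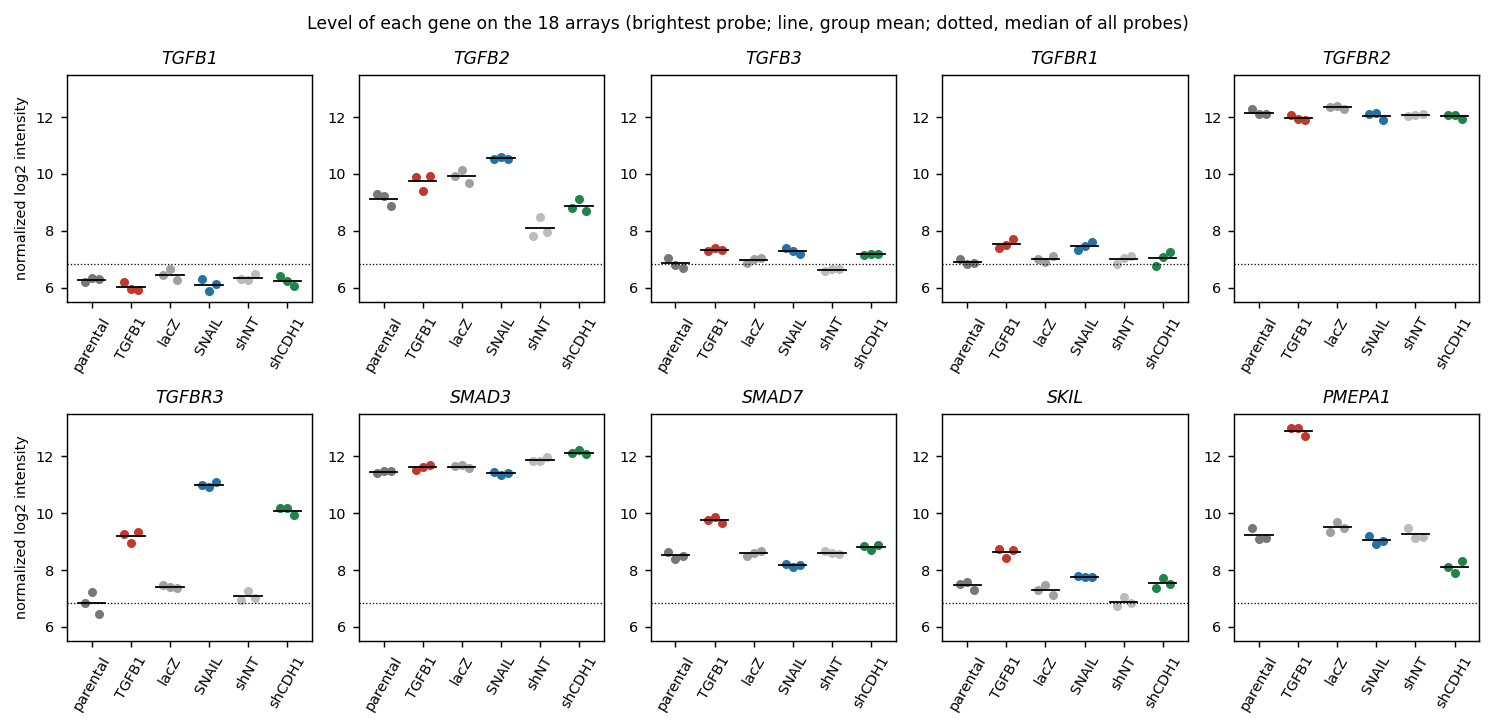
Normalized log2 intensity (vertical axis) of the brightest probe of each of the 10 genes on all 18 arrays, by group; each point is 1 array, each bar a group mean, and the dotted line the median of all probes (6.83). PMEPA1 stood at 12.73 to 13.01 on the TGFB1-treated arrays and at or below 9.70 on all others, while TGFBR3 was raised in the 3 treated groups.

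Each treatment was compared with its own control in a limma model over all 20046 genes, with Benjamini-Hochberg adjustment over all of them, and calls were made at an adjusted p under 0.05. The 3 comparisons share no arrays. Under TGFB1, 7 of the 10 genes were called higher and 0 lower, against a background of 31.2% of all genes called in either direction and 15.5% called higher. Without normalization between arrays, TGFB2, TGFB3 and TGFBR1 lost these calls. In SNAIL cells 5 of the 10 genes were called higher and 5 lower, against 19.6% of all genes called higher, 17% called lower and 36.6% called in all. In shCDH1 cells 5 were higher and 1 lower, against 17.9% and 16% of all genes and 33.9% in all. Treated and control arrays did not overlap for 9 of the 10 genes under TGFB1 (41.5% of all genes), 9 in SNAIL cells (46.8%) and 7 in shCDH1 cells (39.2%). The median log2 difference of the 10 genes was 0.62 under TGFB1, 0.03 in SNAIL and 0.23 in shCDH1 cells, where the median of all genes was 0.00, 0.01 and 0.01. TGFB2, TGFB3, TGFBR3 and SKIL were called higher in all 3 comparisons, as were 3.61% of all genes. None of the 10 was called lower in all 3 (4.23% of all genes), and each was called in at least 1, while 43.8% of all genes were called in none. SMAD3, SMAD7 and PMEPA1 were called in opposite directions in different comparisons, as were 11.4% of all genes. The effects themselves were also set against each other. TGFB1 and SNAIL effects differed for 5 of the 10 genes, with the TGFB1 effect higher for 4 and lower for 1 (29.3% of all genes differed, 14.1% higher and 15.2% lower). TGFB1 and shCDH1 effects differed for 5, likewise 4 higher and 1 lower (30.1% of all genes, 15% and 15.1%). SNAIL and shCDH1 effects differed for 4, with 2 higher and 2 lower (31.9% of all genes, 16.9% and 15%). In bulk RNA, fewer expressing cells and less RNA per cell cannot be told apart.

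**Figure D2:**
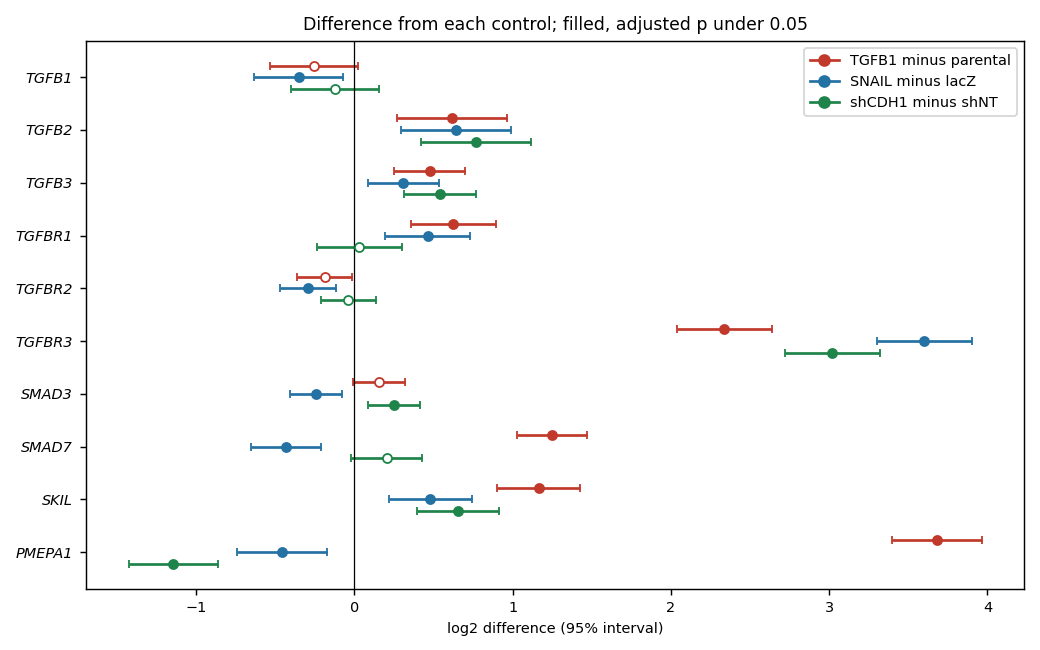
Log2 difference of each gene (horizontal axis) from its own control, with 95% intervals from the limma fit, for TGFB1-treated minus parental, SNAIL minus lacZ and shCDH1 minus shNT cells; filled points have an adjusted p under 0.05. The feedback genes PMEPA1 and SMAD7 lie far to the right under TGFB1 (3.68 and 1.25) and to the left in SNAIL cells (-0.46 and -0.43).

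PMEPA1, a membrane protein that sequesters SMAD2 and SMAD3, showed the widest range of the 10 genes, 4.80 log2 units between its lowest and highest group means. The parental arrays read 9.47, 9.09 and 9.12, and the TGFB1-treated arrays 12.99, 13.01 and 12.73. PMEPA1 was thus higher on every TGFB1-treated array than on any other array of the study, the dim and the bright ones alike. The log2 difference was 3.68 ± 0.14 (SE), a 12.8-fold rise (adjusted p = 1.18e-17). In the cells with reduced CDH1 the gene moved the other way: the shNT arrays read 9.47, 9.12 and 9.17 and the shCDH1 arrays 8.11, 7.89 and 8.32, a 2.21-fold fall (log2 -1.14 ± 0.14, adjusted p = 1.5e-07). The lacZ arrays read 9.33, 9.70 and 9.49 and the SNAIL arrays 9.19, 8.93 and 9.03, which do not overlap. That fall of 0.46 log2 units passed the test (SE 0.14, adjusted p = 0.00903), but not without lacZ array 2 (adjusted p = 0.0701) or SNAIL array 2 (adjusted p = 0.0511), and not against parental cells (log2 -0.18, adjusted p = 0.349). It also failed without normalization between arrays (adjusted p = 0.079). The effect of TGFB1 exceeded that of SNAIL by 4.14 ± 0.19 log2 units (adjusted p = 2.48e-15) and that of shCDH1 by 4.82 ± 0.19 (adjusted p = 1.11e-16). The SNAIL and shCDH1 effects differed too, by 0.68 ± 0.19 (adjusted p = 0.00735).

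All 4 PMEPA1 probes rose under TGFB1, by 3.68, 3.95, 2.50 and 2.43 log2 units. They did not fall together in shCDH1 cells. The brightest probe and ILMN_2309156, annotated to the same transcript record, fell by 1.14 and 0.75, whereas ILMN_1657823 and ILMN_1675858, annotated to a record each, gave 0.22 (adjusted p over probes 0.343) and -0.21 (adjusted p over probes 0.2). With the 4 probes averaged, the shCDH1 difference of PMEPA1 was -0.47 (adjusted p = 0.00042). The plot of every probe shows this split, with ILMN_1675858 below the median of all probes outside the TGFB1-treated cells.

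SMAD7, the inhibitory SMAD that directs ubiquitin ligases to the type I receptor, read 8.65, 8.38 and 8.51 on the parental arrays and 9.75, 9.88 and 9.67 on the TGFB1-treated ones. That was a 2.38-fold rise (log2 1.25 ± 0.11, adjusted p = 3.79e-10), with no overlap between the groups. In SNAIL cells it fell: 8.49, 8.62 and 8.68 on the lacZ arrays became 8.20, 8.12 and 8.16 (log2 -0.43 ± 0.11, adjusted p = 0.00199). Without normalization between arrays that difference was -0.48 with an adjusted p of 0.0966. The shNT arrays read 8.68, 8.59 and 8.55 and the shCDH1 arrays 8.86, 8.69 and 8.88, a log2 difference of 0.20 that did not pass (95% interval -0.02 to 0.43, adjusted p = 0.166). The second SMAD7 probe, ILMN_2203896, rose by 1.63 under TGFB1 and fell by 0.50 in SNAIL cells (adjusted p over probes 0.00776). It was called higher in shCDH1 cells (0.51 ± 0.14, adjusted p over probes 0.00679), where its shNT level was itself lower than parental (-0.48, adjusted p over probes 0.0185). The effect of TGFB1 on SMAD7 was larger than that of SNAIL by 1.68 ± 0.15 (adjusted p = 1.27e-09) and than that of shCDH1 by 1.05 ± 0.15 (adjusted p = 4.82e-06).

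SKIL, the corepressor that TGF-beta both degrades as a protein and induces as a gene, rose in all 3 comparisons. The parental arrays read 7.50, 7.58 and 7.31 and the TGFB1-treated arrays 8.74, 8.44 and 8.72, a 2.24-fold rise (log2 1.17 ± 0.13, adjusted p = 2.95e-08). SNAIL arrays read 7.78, 7.75 and 7.77 against 7.30, 7.47 and 7.10 in lacZ cells (log2 0.48 ± 0.13, adjusted p = 0.00338). The shCDH1 arrays read 7.37, 7.73 and 7.50 against 6.74, 7.05 and 6.85 in shNT cells (log2 0.65 ± 0.13, adjusted p = 0.000151). None of these pairs of groups overlapped. SKIL in shNT cells was itself below the parental level by 0.59 log2 units (adjusted p = 0.00131), and against parental cells the shCDH1 difference was 0.07 (adjusted p = 0.762). Against parental cells the SNAIL difference was 0.30 (adjusted p = 0.0593), and without normalization between arrays it was 0.46 (adjusted p = 0.0923). The TGFB1 effect on SKIL exceeded the SNAIL effect by 0.69 ± 0.18 (adjusted p = 0.00399) and the shCDH1 effect by 0.51 ± 0.18 (adjusted p = 0.0316). A dimmer SKIL probe, ILMN_2098119, had group means of 6.23 to 6.81, below the median of all probes, and was called in none of these comparisons. With both SKIL probes averaged, the SNAIL difference was 0.12 (adjusted p = 0.348).

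**Figure D3:**
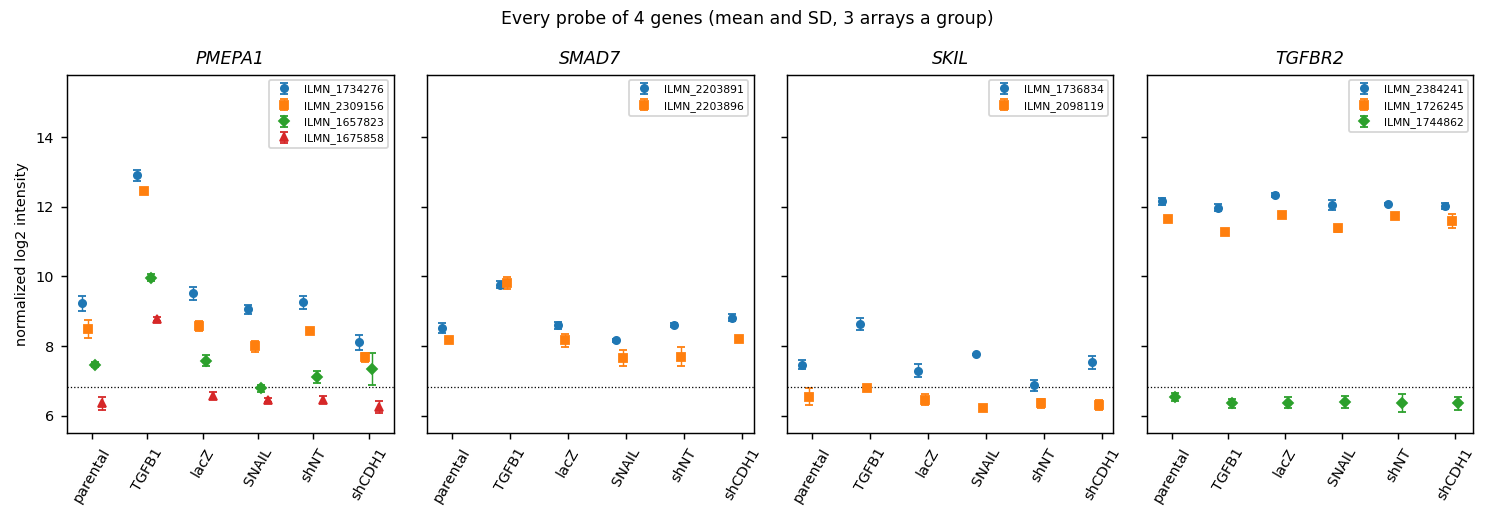
Mean normalized log2 intensity and SD (3 arrays) of every probe of PMEPA1, SMAD7, SKIL and TGFBR2 by group; the dotted line is the median of all probes (6.83). All PMEPA1 and SMAD7 probes are highest in the TGFB1-treated group, while the dim SKIL and TGFBR2 probes stay below the dotted line.

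TGFBR3, the betaglycan co-receptor, rose in all 3 treated groups (TGFB1-treated, SNAIL and shCDH1 cells), and its order differed from that of the feedback genes. The parental arrays read 6.85, 7.22 and 6.47 and the TGFB1-treated arrays 9.25, 8.97 and 9.33 (5.05-fold, log2 2.34 ± 0.15, adjusted p = 5.81e-13). From 7.47, 7.39 and 7.36 in lacZ cells it reached 10.98, 10.93 and 11.11 in SNAIL cells (12.1-fold, log2 3.60 ± 0.15, adjusted p = 3.78e-17). The shNT arrays read 6.956, 7.264 and 7.002 and the shCDH1 arrays 10.17, 10.19 and 9.92 (8.11-fold, log2 3.02 ± 0.15, adjusted p = 1.97e-15). Every array of the 3 treated groups lay above every control array. The effect of SNAIL was larger than that of TGFB1 by 1.27 ± 0.21 (adjusted p = 2.21e-05) and larger than that of shCDH1 by 0.58 ± 0.21 (adjusted p = 0.0322), and that of shCDH1 was larger than that of TGFB1 by 0.68 ± 0.21 (adjusted p = 0.0126). The control levels lay near the median of all probes, and the size of the rise differed between background corrections: the TGFB1 difference was 1.38 when intensities were floored at a low percentile in place of that correction, and 2.78 with offset 16. In lacZ cells TGFBR3 was already above parental cells by 0.56 ± 0.15 (adjusted p = 0.00829).

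Of 5 fibroblast markers checked (PDGFRA, PDGFRB, THY1, DCN and LUM), 2 lay above the median of all probes in parental cells, 0 in lacZ, 1 in shNT, 3 in TGFB1-treated, 3 in SNAIL and 2 in shCDH1 cells. The summed log2 level of the fibroblast list went from 32.6 in parental to 35.5 in TGFB1-treated cells, from 31.9 in lacZ to 41.6 in SNAIL cells and from 31.9 in shNT to 35.9 in shCDH1 cells. LUM, which encodes the matrix proteoglycan lumican, was at 11.47 in SNAIL against 6.51 in lacZ cells, and PDGFRB, a growth factor receptor of mesenchymal cells, at 10.71 against 6.34, while THY1 and PDGFRA stayed below the median of all probes in all 6 groups. LUM was at 9.04 in TGFB1-treated against 7.07 in parental cells, and at 10.08 in shCDH1 against 6.37 in shNT cells. PDGFRB was at 7.01 against 6.36 and at 6.28 against 6.34 in the same pairs. The summed rises thus rest largely on LUM, with PDGFRB beside it in SNAIL cells. The part of these markers in the TGFBR3 result was not tested.

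TGFBR1, the type I receptor kinase, rose 1.54-fold under TGFB1, from 6.84 to 7.01 on the parental arrays to 7.40 to 7.71 (log2 0.63 ± 0.13, adjusted p = 0.000387). In SNAIL cells it rose 1.38-fold, from 6.89 to 7.10 on the lacZ arrays to 7.31 to 7.62 (log2 0.46 ± 0.13, adjusted p = 0.00547). The treated and control arrays did not overlap in either case, and both changes lay just above the median of all probes. Without normalization between arrays neither passed (adjusted p = 0.159 under TGFB1 and 0.0785 in SNAIL cells). Over all other settings the TGFBR1 difference under TGFB1 ran from 0.05 to 0.81 and passed in 16 of 18 (highest adjusted p = 0.796). In SNAIL cells it ran from 0.21 to 0.60 and passed in 17 of 19 (highest adjusted p = 0.581). In shCDH1 cells the TGFBR1 difference was 0.03 (95% interval -0.24 to 0.30, adjusted p = 0.898), and the TGFB1 effect was larger than the shCDH1 effect by 0.59 ± 0.18 (adjusted p = 0.0144).

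TGFBR2, the type II receptor kinase, was bright in all groups, with means of 11.98 to 12.34. The TGFB1-treated arrays read 12.08, 11.94 and 11.91 against 12.28, 12.10 and 12.10 in parental cells, a log2 difference of -0.19 ± 0.08 that did not pass (adjusted p = 0.101). A second bright probe, ILMN_1726245, was called lower under TGFB1 (-0.38 ± 0.09, adjusted p over probes 0.00256), and the gene was called lower with the probes averaged (log2 -0.25, adjusted p = 0.0229). That was among 5 of 18 other settings in which TGFBR2 was called lower under TGFB1. Over the 18, the difference ran from -0.57 to -0.13. In SNAIL cells both bright TGFBR2 probes were called lower, by -0.29 ± 0.08 (adjusted p = 0.00689) and -0.37 ± 0.09 (adjusted p over probes 0.00234). The first of these calls ended without SNAIL array 3 (-0.21, adjusted p = 0.0738) and against parental cells (-0.12, adjusted p = 0.321). Without normalization between arrays it ended too (adjusted p = 0.176). In shCDH1 cells TGFBR2 differed by -0.04 (95% interval -0.21 to 0.14, adjusted p = 0.803). The remaining probe, ILMN_1744862, lay below the median of all probes with group means of 6.35 to 6.54.

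Among the ligands, TGFB2 had the widest span of group means, 2.46 log2 units from shNT to SNAIL cells. The TGFB1-treated arrays read 9.89, 9.40 and 9.93 against 9.29, 9.22 and 8.86 in parental cells, a 1.53-fold rise (log2 0.62 ± 0.17, adjusted p = 0.00568). This call ended without parental array 3 (log2 0.48, adjusted p = 0.0516), with median centring (0.48, adjusted p = 0.0854) and without normalization (0.23, adjusted p = 0.527). SNAIL arrays read 10.52, 10.60 and 10.54 against 9.93, 10.14 and 9.67 in lacZ cells, a 1.56-fold rise (log2 0.64 ± 0.17, adjusted p = 0.00318; without normalization 0.58, adjusted p = 0.106). The shCDH1 arrays read 8.80, 9.10 and 8.68 against 7.82, 8.50 and 7.96 in shNT cells, a 1.70-fold rise (log2 0.77 ± 0.17, adjusted p = 0.000638). No pair of groups overlapped. The 3 effects on TGFB2 lay close to each other, and none of their differences passed the test: TGFB1 minus SNAIL was -0.03 (adjusted p = 0.962) and TGFB1 minus shCDH1 was -0.15 (95% interval -0.64 to 0.34, adjusted p = 0.717).

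In the 2 virus controls TGFB2 differed from parental cells in opposite directions, and the part of the virus in this was not tested. Against parental cells, which are also the control of the TGFB1 comparison, TGFB2 was higher in lacZ cells by 0.79 ± 0.17 (adjusted p = 0.0014) and lower in shNT cells by -1.03 ± 0.17 (adjusted p = 6.71e-05). Set against parental cells, the TGFB2 difference of shCDH1 cells was -0.26 (adjusted p = 0.264) and no longer a rise. Of the 10 genes, TGFB2 and TGFBR3 were called higher in lacZ cells and 0 were called lower, against 7.04% of all genes called higher, 6.72% lower and 13.8% in all. Arrays of lacZ and parental cells did not overlap for 3 of the 10 genes (28.6% of all genes). In shNT cells SMAD3 was called higher and TGFB2 and SKIL lower, against 10.2% and 10.6% of all genes and 20.8% in all, and 5 of the 10 did not overlap with parental cells (32.6%).

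TGFB3 was dimmer, with group means of 6.63 to 7.33 around the median of all probes. It rose 1.39-fold under TGFB1 (log2 0.48 ± 0.11, adjusted p = 0.0012), 1.24-fold in SNAIL cells (0.31 ± 0.11, adjusted p = 0.0274) and 1.46-fold in shCDH1 cells (0.54 ± 0.11, adjusted p = 0.00025), and treated and control arrays did not overlap in any of the 3. The SNAIL call on TGFB3 ended without lacZ array 1, SNAIL array 1 or SNAIL array 2 (adjusted p = 0.114, 0.121 and 0.0636). Without normalization between arrays the TGFB1 difference was 0.19 (adjusted p = 0.384) and the SNAIL difference 0.27 (adjusted p = 0.269). With the floor in place of background correction, the TGFB3 difference under TGFB1 turned to -0.06 (adjusted p = 0.785).

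TGFB1, the gene of the ligand that was added as protein, lay below the median of all probes in every group, with means of 6.02 to 6.46. The TGFB1-treated arrays read 6.20, 5.94 and 5.91 against 6.19, 6.34 and 6.28 in parental cells, and the difference did not pass (log2 -0.25 ± 0.14, adjusted p = 0.176). In SNAIL cells TGFB1 was called lower (-0.35 ± 0.14, adjusted p = 0.043), although SNAIL and lacZ arrays overlapped. That call ended without lacZ array 1 or 2 or SNAIL array 2 or 3 (adjusted p from 0.0711 to 0.25) and against parental cells (-0.17, adjusted p = 0.378). In shCDH1 cells the TGFB1 difference was -0.12 (95% interval -0.40 to 0.16, adjusted p = 0.571).

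SMAD3, the receptor-activated transducer, was bright, with group means of 11.40 to 12.14, and its changes were small. In shCDH1 cells it was called higher, at 12.12, 12.23 and 12.07 against 11.85, 11.84 and 11.97 in shNT cells (log2 0.25 ± 0.08, adjusted p = 0.0146). In SNAIL cells it was called lower, at 11.46, 11.35 and 11.41 against 11.65, 11.69 and 11.60 in lacZ cells (-0.24 ± 0.08, adjusted p = 0.0177). Both calls on SMAD3 ended with median centring (adjusted p = 0.112 and 0.159) and without normalization. The first also ended without shCDH1 array 2 (adjusted p = 0.09) or shNT array 1 (adjusted p = 0.0517), and the second without lacZ array 2 (adjusted p = 0.0634) or SNAIL array 2 (adjusted p = 0.077). Under TGFB1 the SMAD3 difference was 0.15 ± 0.08 (adjusted p = 0.157), and its sign turned under the other scalings (-0.0041 with median centring, -0.25 without normalization and -0.25 with a floor). SMAD3 in shNT cells was above the parental level by 0.43 ± 0.08 (adjusted p = 0.000284). The SNAIL effect on SMAD3 lay below the shCDH1 effect (log2 -0.49 ± 0.11, adjusted p = 0.00107) and below the TGFB1 effect (by 0.40 ± 0.11, adjusted p = 0.00789).

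Ranked by group mean, PMEPA1, SMAD7 and SKIL were each highest in TGFB1-treated cells, with no overlap between that group and the next. Their lowest groups differed: shCDH1 for PMEPA1, SNAIL for SMAD7 and shNT for SKIL. TGFBR3 was ordered SNAIL, shCDH1, TGFB1-treated, lacZ, shNT and parental cells, and of these neighbours the shNT and parental arrays alone overlapped. For the TGFB1 gene every pair of neighbouring groups overlapped, and for TGFBR2 the shNT and parental groups were the sole neighbours that did not. Across the 18 arrays, which share group structure, PMEPA1 correlated with SMAD7 at r = 0.83 and with SKIL at 0.74, and with TGFBR3 at -0.03, and TGFBR3 correlated with TGFB3 at 0.80.

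Lists of further pathway genes are set against the share of all genes called: 15.5% higher and 15.7% lower under TGFB1, 19.6% and 17% in SNAIL cells, and 17.9% and 16% in shCDH1 cells. The targets of SMAD complexes include matrix genes, cytokines and cell cycle inhibitors. Of 28 measured, 23 were called higher and 0 lower under TGFB1, with a median log2 difference of 1.19. In SNAIL cells 9 were higher and 9 lower (median 0.05), and in shCDH1 cells 10 were higher and 8 lower (median -0.02). Members of the list also differed between the virus controls and parental cells. In lacZ cells 9 were called higher and 4 lower, against 7.04% and 6.72% of all genes. In shNT cells 7 were called higher and 3 lower, against 10.2% and 10.6% of all genes.

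The largest rises under TGFB1 were those of the metalloprotease gene ADAM19 (log2 6.56), the collagen gene COL5A1 (6.21) and the cytokine gene IL11 (5.67). In SNAIL cells ADAM19 rose by 4.13, COL5A1 by 5.17 and IL11 by 1.29, and in shCDH1 cells COL5A1 was the one of them called, with a rise of 2.47. The collagen gene COL3A1 rose by 6.55 in SNAIL cells and by 0.54 under TGFB1. CCN2, the gene of connective tissue growth factor, rose in all 3 comparisons, by 2.78, 3.71 and 4.18, and the basement membrane collagen gene COL4A1 rose by 3.40 under TGFB1 and by 1.84 in shCDH1 cells. In lacZ cells COL5A1, IL11, CCN2 and COL4A1 were already above parental cells, by 1.33, 0.99, 1.08 and 0.85.

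Other targets rose under TGFB1 and fell in the virus comparisons. VEGFA, an angiogenic growth factor gene, rose by 0.90 under TGFB1 and fell by 1.39 in SNAIL cells and fell by 2.01 in shCDH1 cells. BHLHE40, a transcriptional repressor gene, rose by 1.15 and fell by 1.16 and 1.11. The cell cycle inhibitor CDKN1A rose by 2.80 and fell by 0.45 and 1.42, and ANGPTL4 rose by 3.08 and fell by 1.42 and 0.33. CDKN1A was below the parental level in lacZ cells (-0.40), and ANGPTL4 above it in shNT cells (0.60). SNAI2, a transcription factor gene related to SNAI1, rose by 2.97 under TGFB1 and by 0.52 in shCDH1 cells. Its fall of 3.17 in SNAIL cells started from a lacZ level that was 2.92 above the parental one (adjusted p = 5.75e-15), with means of 8.12 in parental, 11.04 in lacZ and 7.88 in SNAIL cells.

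**Figure D4:**
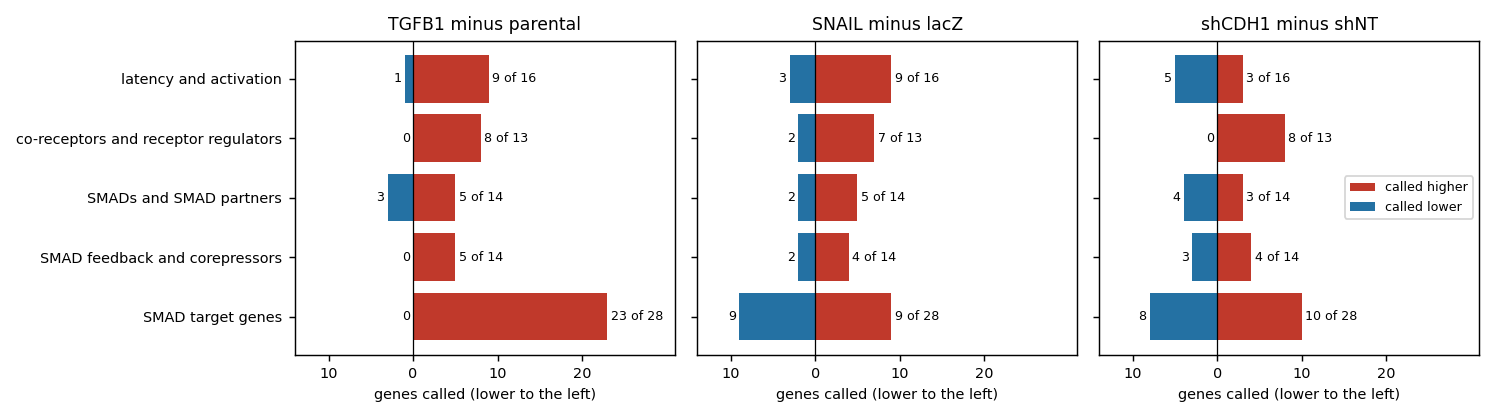
Number of genes called higher (right) and lower (left) at adjusted p under 0.05 in 5 lists of further pathway genes, for each treatment against its own control. SMAD target genes are called higher in 23 of 28 cases under TGFB1 with 0 lower, and are split 9 against 9 in SNAIL cells and 10 against 8 in shCDH1 cells.

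Of 16 genes that store or activate latent TGF-beta, 9 were called higher and 1 lower under TGFB1 (median 0.41), 9 higher and 3 lower in SNAIL cells (0.43), and 3 higher and 5 lower in shCDH1 cells (-0.09). In these 3 comparisons 15.5%, 19.6% and 17.9% of all genes were called higher and 15.7%, 17% and 16% lower. THBS1, whose protein frees the latent ligand, rose in all 3, by 2.43, 1.74 and 2.50 log2 units, and was also higher in lacZ than in parental cells by 1.93 (adjusted p = 4.16e-10). ITGB6, a subunit of the integrin that activates latent TGF-beta on epithelia, fell by 0.63, 1.63 and 1.07, and was below the parental level in both virus controls, by -0.90 in lacZ and -1.29 in shNT cells. The gelatinase gene MMP9 rose by 4.94 under TGFB1 and by 0.57 in SNAIL cells. LTBP2, of the latent TGF-beta binding protein family, rose by 2.44 under TGFB1 and fell by 0.37 and 0.41 in the other comparisons. LRRC32, a docking protein of latent TGF-beta, rose by 1.56 in SNAIL cells, and the related NRROS rose by 0.54 in SNAIL and 1.61 in shCDH1 cells. The convertase gene FURIN rose by 0.33 under TGFB1 and 0.40 in SNAIL cells, where its lacZ control was below parental cells (-0.54), and fell by 0.95 in shCDH1 cells.

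Among 13 co-receptors and receptor regulators, 8 were called higher and 0 lower under TGFB1 (median 0.30), 7 and 2 in SNAIL cells (0.42), and 8 and 0 in shCDH1 cells (0.31). DAB2, an adaptor between the receptors and SMADs, rose by 1.87, 4.52 and 2.48 log2 units, and was above the parental level in lacZ (1.26) and shNT cells (0.33) too. ENG, the co-receptor endoglin, rose in all 3, by 0.60, 2.40 and 1.16. BAMBI, a decoy receptor, rose by 0.81 under TGFB1 and fell by 0.45 in SNAIL cells, but lacZ cells were 0.82 above parental cells (adjusted p = 7.11e-07), so that the SNAIL mean of 12.45 was still above the parental mean of 12.08. Of 14 SMADs and SMAD partners, 5 were higher and 3 lower under TGFB1, 5 and 2 in SNAIL cells, and 3 and 4 in shCDH1 cells. All genes were called at 31.2%, 36.6% and 33.9% in the same comparisons. SMAD6, an inhibitory SMAD of the bone morphogenetic protein branch, fell by 1.10 under TGFB1 and by 1.01 in shCDH1 cells and rose by 0.60 in SNAIL cells, from a lacZ level that lay below the parental one (log2 -1.29). SMAD4, the common partner SMAD, fell by 0.32 under TGFB1 and rose by 0.53 in SNAIL and 0.39 in shCDH1 cells.

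Of the 14 other feedback and corepressor genes measured, 5 were called higher and 0 lower under TGFB1 (median 0.10), 4 and 2 in SNAIL cells (0.11), and 4 and 3 in shCDH1 cells (0.14). Taken in either direction, the counts in SNAIL and TGFB1-treated cells lie near the 36.6% and 31.2% of all genes called. The rises under TGFB1 stand against 15.5% of all genes called higher, and the shCDH1 counts against 33.9% called in either direction. PPP1R15A, a phosphatase adaptor that acts with SMAD7 on the receptor, rose in all 3 comparisons, by 0.99, 1.22 and 0.66. The ubiquitin ligase gene WWP2 rose by 1.42, 0.69 and 0.61. SMURF1, a ligase partner of SMAD7, rose by 0.56 under TGFB1 and fell by 0.74 in SNAIL cells. The corepressor gene TGIF2 rose by 0.42 under TGFB1 and by 0.70 in shCDH1 cells and fell by 0.61 in SNAIL cells.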

How the data were processed

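Illumina bead arrays were probed with biotin-labelled cRNA made from total RNA, per the labels' protocols. For the scanner and its software, the version is not given in the sources used here. What the authors deposited were linear intensity values for 47323 probes on 18 arrays, and array medians differ, so the table was read as not normalized. The 2 probes with a value of 0 were left out. Background was corrected by the normexp method of limma 3.58.1 (R 4.3.3) with an offset of 50, and quantile normalization followed the log2 step, where the alternatives were median centring, no normalization, or a floor at the 5th percentile in place of normexp. In the platform annotation, which can be old, 30113 tested probes had 1 symbol, 8 had several and 17200 were not listed. Each gene was represented by its brightest probe, giving 20046 genes, and other probes were tested in a fit over all 30113. All comparisons were two-sided contrasts of a single 6-group model with 12 residual degrees of freedom, moderated by empirical Bayes with an intensity trend. Replicate numbers were not used as pairs. Members and gene lists were chosen with earlier results of these data known, so list counts are descriptions. Genes outside the 10 were named by size: up to 3 called rises and 3 called falls per list and comparison, and the 3 genes most correlated with a member. SNAI1 and CDH1 were label checks. The model was tested on simulated data. Of the list symbols, 5 were not analysed here. Array number, 3 per group, limits the precision.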

Additional observations from a re-analysis of the deposited data

How the results depend on the processing

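Over the other settings tried, 476 of 557 member differences kept their direction and their side of the threshold, 59 lost their call, 9 gained one and 13 changed sign; the cause was not tested. PMEPA1, SMAD7, SKIL and TGFBR3 kept their rises under TGFB1 in all 18 of them. Without normalization between arrays, called genes numbered 4641 for SNAIL minus lacZ, 4208 for shCDH1 minus shNT, 1091 for lacZ minus parental, 1946 for shNT minus parental and 3624 for SNAIL effect minus shCDH1 effect. With a floor and log2 alone they numbered 3588, 3391, 712, 1636 and 2804, and 3000 for TGFB1 effect minus SNAIL effect, against 7340, 6803, 2760, 4161, 6404 and 5873. Members called without normalization were 2 for SNAIL, 0 for lacZ, 3 for TGFB1 minus SNAIL effects, 2 for TGFB1 minus shCDH1 effects and 0 for SNAIL minus shCDH1 effects, and with the floor 1, 0, 3, 2 and 0, against 10, 2, 5, 5 and 4. Against parental cells, 5 members were called for SNAIL. Leaving out 1 array gave 6 to 10 members called for SNAIL minus lacZ (6 without SNAIL array 2), 1 to 2 for lacZ minus parental (1 without parental array 3) and 3 to 5 for TGFB1 minus shCDH1 effects (3 without shCDH1 array 1).

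Signs turned for TGFB3 under TGFB1 with the floor (-0.056), for SMAD3 under TGFB1 with median centring (-0.0041), no normalization (-0.25), the floor (-0.25) and all 3 control groups (-0.050), for TGFB1 in shCDH1 cells with the floor (0.076), for TGFB2 in shCDH1 cells against all 3 controls (-0.18) and parental cells (-0.26), and for TGFBR2 in shCDH1 cells without normalization (0.035) and with the floor (0.039). With 1 array left out, TGFBR1 in shCDH1 cells ran from -0.083 to 0.17 and TGFBR2 from -0.066 to 0.010. Under TGFB1, rises as a share of all calls went from 49.6% to 17.0% without normalization, where the median of all genes was -0.22, and to 12.9% with the floor (-0.30). In shNT minus parental it went from 48.9% to 29.9% with median centring, 18.3% without normalization and 13.2% with the floor; in shCDH1 minus shNT from 52.8% to 63.0% with the floor, and in SNAIL minus lacZ from 53.5% to 43.1%. For the comparisons of effects it went, without normalization and with the floor, from 48.0% to 27.8% and 26.0% (TGFB1 minus SNAIL), from 49.8% to 19.4% and 13.0% (TGFB1 minus shCDH1) and from 53.0% to 43.0% and 35.8% (SNAIL minus shCDH1). Arrays with equal title numbers correlated at -0.13 to 0.22 in their deviations from group means, and those with unequal numbers at -0.32 to 0.20. All equal-number values were positive except that of shCDH1 array 1 with shNT array 1 (-0.13). Unequal-number values had both signs in every comparison. With the replicate block, calls numbered 6455 under TGFB1, 7522 for SNAIL and 6999 for shCDH1, against 6245, 7340 and 6803, and no member changed its call in these 3.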

Other observations

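For each gene whose group means spanned at least 1 log2 unit, the 3 genes with the most similar pattern over the 18 arrays were looked up by Pearson correlation, as a description, since arrays of a group share their treatment. PMEPA1 was followed most closely by NRK, CGB1 and CDKN1A (r = 0.97 each). CDKN1A encodes the cell cycle inhibitor p21 and CGB1 a chorionic gonadotropin subunit with near-identical copies in the genome, so that its probe may read several of them. SMAD7 was followed by RGS10, a regulator of G protein signalling, and SIK1, a salt-inducible kinase (both r = 0.98), and by ANGPTL4 (r = 0.97), a secreted regulator of lipoprotein lipase. SKIL was followed by TMEM145, TNFRSF9 and LRRC8C (r = 0.95, 0.95 and 0.94), of which TNFRSF9 encodes the costimulatory receptor 4-1BB and LRRC8C a subunit of volume-regulated anion channels.

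TGFBR3 and TGFB2 were followed by other genes. The closest to TGFBR3 were SPANXB1, SPANXA2 and CDYL2 (r = 0.99 each), and the SPANX genes, normally expressed in testis, are near-identical copies that probes may not tell apart. TGFB2 was followed by QNG1, CLASP2 and ZRANB1 (r = 0.97, 0.96 and 0.95). CLASP2 encodes a protein of growing microtubule ends and ZRANB1 a deubiquitinase.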
